A study of Mus musculus with 4 samples.

Results

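Microexons are very short exons, here the cassette exons of 3 to 27 nucleotides. They were followed in N2A cells, a mouse neuroblastoma line, after depletion of the splicing regulators Ptbp1 and Ptbp2. The deposited exon list held 2137 such microexons among 180955 cassette exons, a cassette exon being an exon that can be kept or skipped between its neighbours. A microexon was chosen by its size alone. It was read where at least 20 junction reads were present in each of the 4 libraries, which left 563 microexons in 499 named genes, with 6 microexons tied to no gene symbol. No junction read was seen in any library for 1198 others, 300 had some reads but fewer than 20 in every library, and 76 reached 20 in some libraries only.

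The 4 libraries, each of poly(A) RNA, came from cells transfected with shRNA to deplete Ptbp1, shRNA to deplete Ptbp2, both at once (double knockdown) or a control shRNA. Shared by all 4 were a lipid transfection of 5 h, a culture of 3 d in medium with 10% serum, and strand-specific paired reads of 100 bases. Each group was 1 library, so differences have no replicate check, no test between groups was run, and the intervals given below cover counting error only. The depletion is that of a transfected culture, in which a change in every cell and a larger change in some of the cells cannot be told apart.

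Polypyrimidine tract-binding proteins bind pyrimidine-rich RNA, often next to an exon, and repress the use of many exons. Ptbp1 is made in most cells that are not neurons, and Ptbp2 is its close relative in neurons, where Ptbp1 declines. Microexons are known for their use in neurons, where the factor Srrm4 promotes many of them. Most of those keep the reading frame and so add a few amino acids to a protein without changing the rest of it.

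The sequences that the results below turn on are shown first. The letters are from GENCODE M21 transcripts (GRCm38), matched to the exon by intron and exon lengths. The microexon is in capitals and the 20 transcript bases on each side, which belong to the neighbouring exons, are in lower case. Positions are 1-based on mm9, the build of the deposited files. The first set rose by 20 points or more after double knockdown: Exoc1 at chr5:76969772-76969792 (+), Ap1b1 at chr11:4933245-4933265 (+), Fnbp1 at chr2:30900402-30900416 (-), Tmem184b at chr15:79194088-79194108 (-) and Adgrl2 at chr3:148523391-148523402 (-).
Exoc1: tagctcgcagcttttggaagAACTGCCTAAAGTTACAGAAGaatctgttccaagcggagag
Ap1b1: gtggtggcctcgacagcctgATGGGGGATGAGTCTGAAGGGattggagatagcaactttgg
Fnbp1: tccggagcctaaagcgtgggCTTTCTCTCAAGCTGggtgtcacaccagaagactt
Tmem184b: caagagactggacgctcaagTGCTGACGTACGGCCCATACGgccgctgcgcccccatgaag
Adgrl2: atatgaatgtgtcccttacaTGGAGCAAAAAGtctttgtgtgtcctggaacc

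The second set pairs microexons of related genes, to show similar letters beside like or unlike responses. It holds Tenm3 at chr8:49372487-49372507 (-) with Tenm4 at chr7:104003227-104003247 (+), Mink1 at chr11:70422910-70422933 (+) with Tnik at chr3:28524121-28524144 (+), and Dst at chr1:34353587-34353604 (+) with Macf1 at chr4:123041300-123041317 (-).
Tenm3: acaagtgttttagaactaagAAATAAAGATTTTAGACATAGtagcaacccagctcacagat
Tenm4: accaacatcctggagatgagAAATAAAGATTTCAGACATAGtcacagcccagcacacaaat
Mink1: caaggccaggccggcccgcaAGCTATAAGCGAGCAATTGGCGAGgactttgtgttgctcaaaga
Tnik: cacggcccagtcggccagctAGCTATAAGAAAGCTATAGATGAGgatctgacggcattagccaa
Dst: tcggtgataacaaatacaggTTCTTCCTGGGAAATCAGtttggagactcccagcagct
Macf1: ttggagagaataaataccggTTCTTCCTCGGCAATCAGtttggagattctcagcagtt

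The third set fell in at least 1 knockdown: Inpp4a at chr1:37431117-37431134 (+), Nckap1 at chr2:80411370-80411387 (-), Picalm at chr7:97342783-97342806 (+) and Mroh1 at chr15:76262802-76262828 (+).
Inpp4a: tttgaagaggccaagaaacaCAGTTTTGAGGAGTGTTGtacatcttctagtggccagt
Nckap1: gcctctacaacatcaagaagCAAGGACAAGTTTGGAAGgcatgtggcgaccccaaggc
Picalm: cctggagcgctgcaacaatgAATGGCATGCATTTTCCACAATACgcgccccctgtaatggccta
Mroh1: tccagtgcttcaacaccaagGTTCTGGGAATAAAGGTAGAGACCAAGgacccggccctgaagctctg

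Inclusion was the mean of the reads at both junctions that join the microexon to its neighbours, over that mean plus the reads at the skipping junction, in percent. A microexon counts as higher or lower where its inclusion differed by 20 percentage points or more. Depth was alike: 58.2 M junction reads after Ptbp1 knockdown, 69.7 M after Ptbp2 knockdown, 72.8 M after double knockdown and 74.3 M in control. The median measured microexon had 136.5, 146, 164.5 and 165.5 reads in the same order. Over 10 markers of noradrenergic neuroblastoma cells with exons on the list, 9 were above 100 scaled reads per kb in control and their sum lay between 168131 and 222902 in the 4 libraries. The summed levels of marker lists of other cell types were at most 476 scaled reads per kb in any library (glia 327 to 476, fibroblasts 115 to 419, endothelium 248 to 331, immune cells 54.9 to 162, epithelium 6.18 to 41.9). Within the neuroblastoma list Dbh, which makes noradrenaline, was at 393%, 37.8% and 108% of control after Ptbp1, Ptbp2 and double knockdown. Ptprc, Cd3e, Kdr, Aqp4, Lum and Epcam were at or near 0.

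Ptbp1 RNA was at 30.3% of control after Ptbp1 knockdown, 116% after Ptbp2 knockdown and 23.2% after double knockdown, from reads on its exons per kb. Ptbp2 RNA was at 216%, 24.1% and 44.7% of control in those libraries. The Ptbp2-depleted library thus had full Ptbp1 RNA, while the double knockdown had both reduced, and the Ptbp1 knockdown had more Ptbp2 RNA than control. Ptbp3, the third family member, was at 59.6%, 50.7% and 53.3%. Srrm4, which promotes microexons in neurons, was at 129%, 98.7% and 97.0% of control, and its relative Srrm3 at 166%, 126% and 128%. Mbnl1, another splicing regulator, was at 103%, 38.0% and 50.2%. The part of these other regulators in the inclusion values was not tested.

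A property of the counts touches every value. Per length class, the 1-2 junction, which is the first junction in genome order on both strands, held a median of 96.4% of the reads at both inclusion junctions in control for microexons of 3 to 9 nucleotides, and 85.4% for those of 22 to 27. For exons of over 100 and up to 150 nucleotides it held 50%. Whether a read that crosses both junctions of a short exon is counted at the 1-2 junction only was not tested. Where the 1-2 junction holds more reads than the 2-3 junction, the mean of both gives a lower inclusion than the 1-2 junction alone. For microexons between 5 and 95% within a library, the 1-2 value was higher by a median of 7.39 to 8.19 points in the knockdowns and 7.12 points in control. The deposited SpliceTrap ratio lay within 0.369 points of the 1-2 value at the median of each library. Counts from the 1-2 junction are therefore given beside those from the mean for the whole set of microexons, and for some named ones. Counts by size, frame, codon position, annotation, gene list and range of control inclusion use the mean alone. Since the 1-2 share changes with size (81.4% at 28 to 35 nucleotides), limits on inclusion are not strictly alike between size classes.

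**Figure D1:**
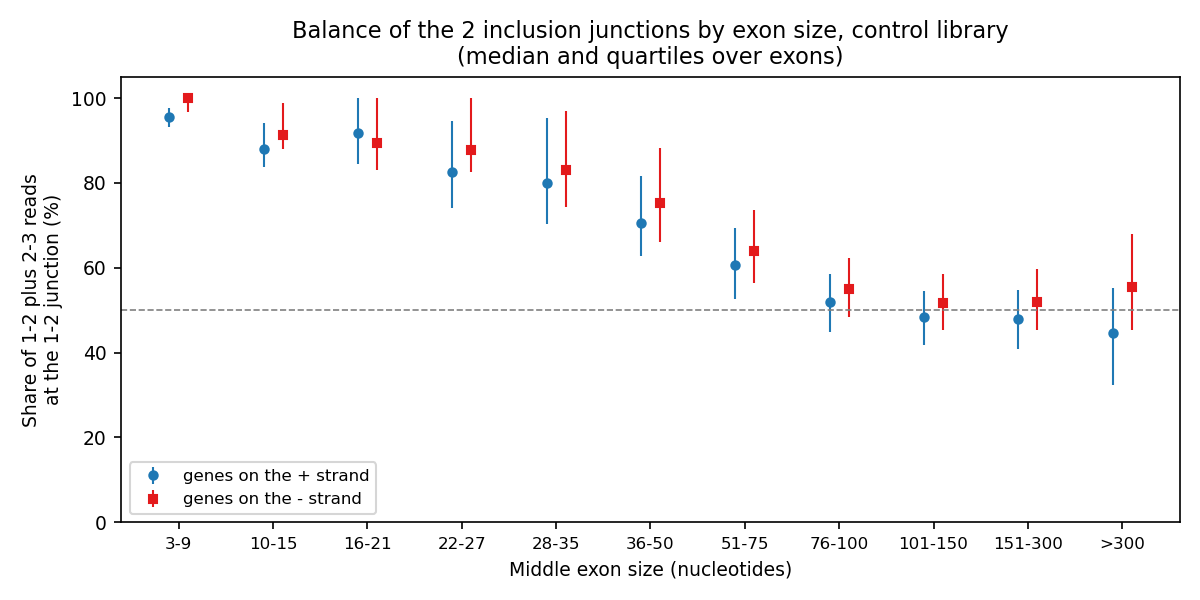
Share of inclusion-junction reads found at the 1-2 junction in the control library (vertical axis, percent) by size of the middle exon (horizontal axis, nucleotides), with genes on the + strand as circles and on the - strand as squares. Points are medians over exons and bars run between the quartiles; the dashed line marks 50%, which exons over 100 nucleotides sit near while microexons sit above 80%.

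Most microexons were either always kept or variable. In all 4 libraries, 274 of 563 were above 95% and 33 were below 5%. Inclusion moved by less than 5 points over the libraries for 334, by at least 20 points for 97 and by at least 50 points for 26. Median inclusion was 97.8% after Ptbp1 knockdown, 95.8% after Ptbp2 knockdown, 97.5% after double knockdown and 97.4% in control. Over all 563 the median difference from control was 0 in each knockdown, and the changes past 20 points described below belong to a minority. Among the 181 at 5 to 95% in control, it was 7.56 points after Ptbp1 knockdown, with 152 above control and 29 below. It was -0.952 points after Ptbp2 knockdown (78 above, 103 below) and 8.24 points after double knockdown (143 above, 38 below). Exons over 27 nucleotides in that range had medians of 0.0441, -1.03 and -0.0886 points. The range was set after the values were seen.

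After Ptbp1 knockdown 50 of 563 microexons (8.88%) were higher than in control and 2 (0.355%) were lower. Over all 100166 measured cassette exons the shares were 0.236% higher and 0.0988% lower. By the 1-2 junction 60 microexons were higher and 2 lower, of which 47 and 2 were shared with the first counts, against 0.326% and 0.202% of all cassette exons. After Ptbp2 knockdown 2 microexons were higher and 10 lower, against 0.0359% and 0.132% of all cassette exons. Counted at the 1-2 junction these were 4 and 12, against 0.118% and 0.242%. After double knockdown 68 microexons (12.1%) were higher and 8 (1.42%) lower, against 0.331% and 0.225% of all cassette exons. By the 1-2 junction they were 71 and 5, with 59 and 4 shared, against 0.426% and 0.331%. The 3 comparisons share the control library, so a control value that is off by chance moves all of them. In all, 84 microexons of 80 genes passed 20 points in at least 1 comparison with control.

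The double knockdown was also set against each single knockdown. Against the Ptbp1 knockdown 17 microexons were higher and 8 lower, beside 0.126% and 0.122% of all cassette exons. Against the Ptbp2 knockdown 74 were higher and 4 lower, beside 0.398% and 0.16%. By the 1-2 junction the counts were 16 and 7 against the Ptbp1 knockdown (0.21% and 0.226% of all), and 74 and 4 against the Ptbp2 knockdown (0.472% and 0.248% of all).

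**Figure D2:**
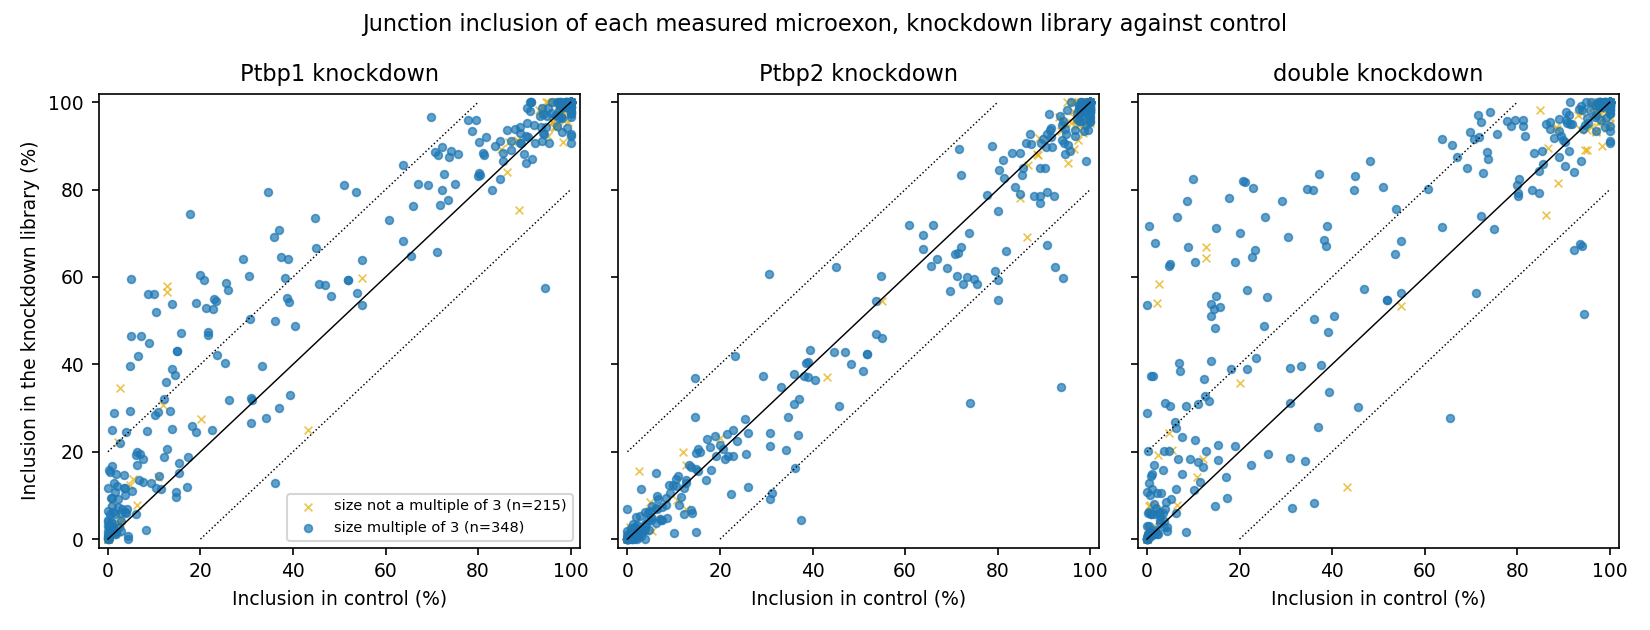
Inclusion of each of 563 measured microexons in a knockdown library (vertical axis, percent) against control (horizontal axis, percent), for the Ptbp1, Ptbp2 and double knockdown; circles are microexons whose size is a multiple of 3 (n = 348) and crosses are the others (n = 215). The solid line marks equal inclusion and the dotted lines 20 points above and below; points past the upper line are mostly circles in the Ptbp1 and double knockdown, while after Ptbp2 knockdown few points leave the band and most of them lie below it.

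Size and frame divided the microexons. Of 35 microexons of 3 to 9 nucleotides, 2 were higher and 1 lower after double knockdown. Of 80 microexons of 10 to 15 nucleotides, 13 were higher and none lower. At 16 to 21 nucleotides 25 of 156 were higher and 4 lower, and at 22 to 27 nucleotides 28 of 292 were higher and 3 lower. The share that was higher was 16.2% at 10 to 15 and 16% at 16 to 21 nucleotides, against 5.71% at 3 to 9, where only 35 microexons could be read. Beyond the limit of 27 the share went on falling: 19 of 659 exons of 28 to 35 nucleotides were higher and 8 lower, 36 of 2761 exons of 36 to 50 nucleotides were higher and 13 lower, and 70 of 35034 exons of over 100 and up to 150 nucleotides were higher and 60 lower. Just inside the limit, at 25 to 27 nucleotides, 11 of 153 were higher, and just outside, at 28 to 30, 7 of 197 were. Frame mix differs between these classes, since 71 of 80 microexons of 10 to 15 nucleotides but 162 of 292 of 22 to 27 nucleotides are multiples of 3. Among multiples of 3 alone, 2 of 19 at 3 to 9 nucleotides were higher (10.5%), 13 of 71 at 10 to 15 (18.3%), 23 of 96 at 16 to 21 (24%) and 26 of 162 at 22 to 27 (16%).

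**Figure D3:**
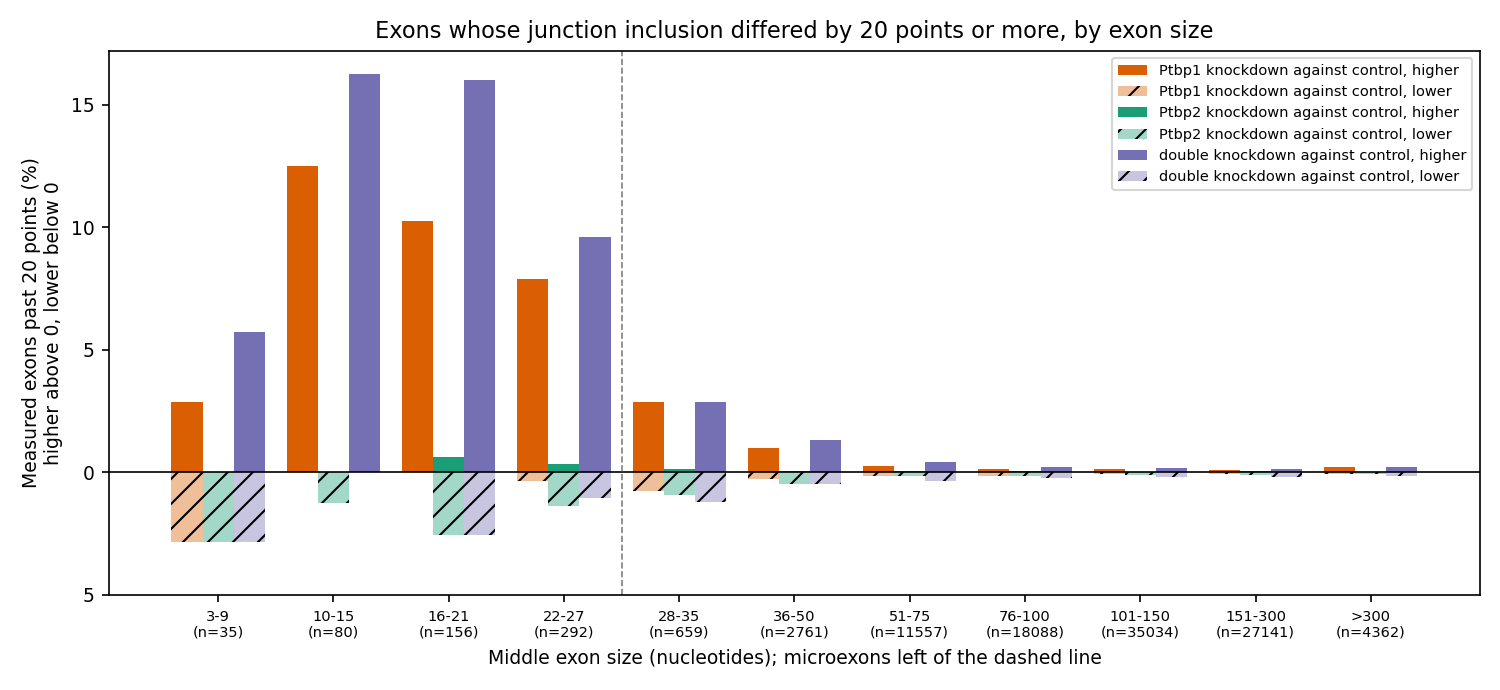
Share of measured cassette exons past 20 points from control (vertical axis, percent, higher above 0 and hatched lower below 0) by exon size (horizontal axis, nucleotides, n in brackets), for the Ptbp1, Ptbp2 and double knockdown. The microexon classes lie left of the dashed line; rises in the Ptbp1 and double knockdown reach 12.5% and 16.2% at 10 to 15 nucleotides and stay below 0.5% from 51 nucleotides on.

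Exons near 100% in control have little room to rise, so the counts were repeated within a range of control inclusion. Among exons at 5 to 95% in control, a limit set after the values were seen, 58 of 181 microexons (32.0%) were higher after double knockdown and 8 lower. Of exons over 27 nucleotides within the same range, 224 of 4497 (4.98%) were higher and 193 lower. After Ptbp1 knockdown the counts were 43 higher and 2 lower among the microexons, and 165 and 92 among the longer exons. Of exons of 28 to 50 nucleotides in that range, 44 of 356 (12.4%) were higher and 19 lower after double knockdown. By size class in that range, the share that was higher after double knockdown was 30.6% at 10 to 15 nucleotides, 33.3% at 16 to 21 and 35.1% at 22 to 27, and then 13% at 28 to 35 and 12.1% at 36 to 50. From 10 to 27 nucleotides it did not decline, unlike the share of all measured exons. Past the limit both were lower, the share of all measured exons being 9.59% at 22 to 27 nucleotides and 2.88% at 28 to 35. At 3 to 9 nucleotides in that range 2 of 14 (14.3%) were higher. Close to the limit it was 11 of 39 (28.2%) at 25 to 27 nucleotides and 3 of 27 (11.1%) at 28 to 30, while after Ptbp1 knockdown it was 11 of 39 and 8 of 27 (29.6%). With 1 library a group, no test of the difference between size classes was run.

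Frame went with the response. Of the 348 microexons whose size is a multiple of 3, 64 (18.4%) were higher and 7 lower after double knockdown, and 46 were higher and 2 lower after Ptbp1 knockdown. All 10 that were lower after Ptbp2 knockdown and both that were higher there were multiples of 3. The other 215 microexons had 4 higher (1.86%) and 1 lower after double knockdown, and 4 higher and none lower after Ptbp1 knockdown. Their median inclusion was 100% in every library. For the multiples of 3 it was 84.8% after Ptbp1 knockdown, 65.7% after Ptbp2 knockdown, 84.6% after double knockdown and 74.5% in control. Within 5 to 95% in control, 20 microexons were not multiples of 3, and 2 of them were higher after Ptbp1 knockdown, against 41 of 161 multiples of 3. Longer exons at any control inclusion were split by frame as well. At 28 to 50 nucleotides, 50 of 1269 multiples of 3 (3.94%) and 5 of 2151 others (0.232%) were higher after double knockdown. For all exons over 27 nucleotides the shares were 0.497% and 0.118%. The split by frame was thus not particular to microexons.

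The 4 out-of-frame microexons that rose were those of Bak1, Arhgap23, Pdlim7 and Pfkfb3. The 20-nucleotide exon of Bak1, a mitochondrial pore former of apoptosis, was annotated in transcripts subject to nonsense-mediated decay. It stood at 57.9% (48.5 to 66.9) after Ptbp1 knockdown, 16.9% (13.5 to 21) after Ptbp2 knockdown, 66.9% (58.8 to 74.1) after double knockdown and 12.7% (9.0 to 17.7) in control. Both libraries with little Ptbp1 RNA were far above the other pair, and their intervals did not meet. On the exon reads of the whole gene, Bak1 differed from control by -0.55, 0.74 and -0.34 on the log2 scale in the Ptbp1, Ptbp2 and double knockdown. The 17-nucleotide exon of Pdlim7, an actin-associated adaptor, was at 22.3%, 2.32%, 54.1% and 2.22% in the Ptbp1, Ptbp2 and double knockdown and control. The 23-nucleotide exon of Pfkfb3, which makes the glycolysis activator fructose-2,6-bisphosphate, was at 34.5%, 0.651%, 58.3% and 2.67% in the same libraries. These 2 were named after their values were seen.

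By annotation 458 of the 563 microexons were coding and 13 were coding in decay transcripts. Another 47 matched no annotated transcript by exon size and the lengths of both flanking introns. An annotated exon with other neighbours can be among these 47. Of the coding ones 42 were higher (9.17%) and 2 lower after Ptbp1 knockdown, and 58 higher (12.7%) and 6 lower after double knockdown. These shares higher were near those of all measured microexons, 8.88% and 12.1%. By where a coding microexon in frame begins in the codon, 27 of 139 that begin with a whole codon (19.4%), 14 of 65 that first finish a codon with 1 base (21.5%) and 15 of 94 that finish it with 2 bases (16%) were higher after double knockdown.

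After Ptbp1 knockdown the microexon with the largest rise was that of Fbxo25, a substrate-binding subunit of a ubiquitin ligase. Its 27 nucleotides were included at 74.5% (67.6 to 80.3) after Ptbp1 knockdown, 21.2% (15.7 to 27.9) after Ptbp2 knockdown, 78.1% (71.1 to 83.7) after double knockdown and 17.8% (13.6 to 23.4) in control. After double knockdown the largest rise was that of Tmem184b, given further on. Among genes of membrane traffic, Exoc1 encodes a subunit of the exocyst, which tethers vesicles to the plasma membrane. Its 21-nucleotide microexon stood at 59.5% (51.2 to 67.0) after Ptbp1 knockdown, 5.06% (2.68 to 9.33) after Ptbp2 knockdown, 63.1% (54.8 to 70.4) after double knockdown and 5.03% (3.02 to 8.93) in control. The Ptbp1 and double knockdown were alike and high, and the Ptbp2 knockdown was level with control. Ap1b1 encodes a large subunit of the AP-1 clathrin adaptor. Its 21-nucleotide microexon stood at 15.4% (12.5 to 19.2) after Ptbp1 knockdown, 0.399% (0.136 to 1.17) after Ptbp2 knockdown, 71.8% (67.5 to 75.7) after double knockdown and 0.401% (0.0881 to 1.16) in control. Its use was thus nearly nil with Ptbp1 present, low with Ptbp1 depleted and high with both depleted. A second microexon of Ap1b1, of 9 nucleotides, was at 24.9%, 10.3%, 16.9% and 22.4% and passed 20 points nowhere.

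Fnbp1 encodes a membrane-bending F-BAR protein of endocytosis. Its 15-nucleotide microexon stood at 56.1% (49.5 to 62.3) after Ptbp1 knockdown, 4.78% (2.87 to 7.86) after Ptbp2 knockdown, 77.5% (72.2 to 82.1) after double knockdown and 8.57% (5.61 to 12.4) in control. A 24-nucleotide microexon of Synj1, a phosphoinositide phosphatase of synaptic vesicle recycling, was at 73.5%, 42.9%, 79.8% and 44.7% in the same libraries. That of Vti1a, a SNARE protein of vesicle fusion (21 nucleotides), was at 60.3%, 21.6%, 70.0% and 20%. All 3 were high in the Ptbp1 and double knockdown and low after Ptbp2 knockdown and in control.

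Of the list of genes of vesicles and endocytosis, 13 genes had 19 measured microexons. After Ptbp1 knockdown 3 were higher (15.8%) and after double knockdown 6 (31.6%), with none lower and none changed after Ptbp2 knockdown. Of all measured microexons 8.88% and 12.1% were higher. The median difference was 6.36 points after Ptbp1 knockdown and 4.75 points after double knockdown, beside 0 over all measured microexons. A 12-nucleotide microexon of Dnm1, the dynamin that pinches off vesicles, was at 95.9%, 61.4%, 96.0% and 79.5% in the Ptbp1, Ptbp2 and double knockdown and control. It passed 20 points in no comparison with control. The microexons of Itsn1 (15 nucleotides) and Tmed2 (21 nucleotides) stayed below 1% in all 4 libraries.

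Of the gene lists, that of the cytoskeleton held the most microexons past 20 points. From 12 listed genes with 20 measured microexons, 7 were higher and none lower after Ptbp1 knockdown, none higher and 1 lower after Ptbp2 knockdown, and 9 higher and 1 lower after double knockdown. The shares higher were 35% after Ptbp1 knockdown and 45% after double knockdown, beside 8.88% and 12.1% of all measured microexons. The 27-nucleotide microexon of Clasp1, which binds growing microtubule ends, stood at 43.0% (34.1 to 51.8) after Ptbp1 knockdown, 19.7% (13.9 to 27.2) after Ptbp2 knockdown, 71.1% (61.0 to 79.5) after double knockdown and 14.9% (9.62 to 22.3) in control. A 24-nucleotide microexon of its relative Clasp2 was at 52.6%, 24.9%, 64.6% and 22.8%. The 15-nucleotide microexon of Dctn1, the large subunit of the dynein activator dynactin, stood at 58.7% (53.5 to 63.6), 19.5% (15.8 to 23.6), 73.8% (68.9 to 78.1) and 25.6% (21.2 to 30.5).

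In each of these 3 the double knockdown was highest, the Ptbp1 knockdown next, and the Ptbp2 knockdown and control had overlapping intervals. Ank3 encodes ankyrin-G, the scaffold of the axon initial segment. Its 27-nucleotide microexon went against that order, with 46.6% (38.3 to 54.7) after Ptbp1 knockdown, 4.29% (2.10 to 8.60) after Ptbp2 knockdown, 30.5% (23.5 to 39.2) after double knockdown and 5.02% (2.90 to 8.57) in control. For Ank3 the intervals of the double and the Ptbp1 knockdown met. The 12-nucleotide microexon of Enah, an actin regulator, stayed at 1.28% or less in all 4 libraries.

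Adhesion molecules and receptors gave 9 measured microexons in 7 listed genes. After Ptbp1 knockdown 4 were higher (44.4%), after double knockdown 5 (55.6%), and none was lower. Of all measured microexons 8.88% and 12.1% were higher. The median difference of the 9 was 13.1 points after Ptbp1 knockdown and 29.7 points after double knockdown. L1cam encodes an axonal adhesion molecule with 2 microexons, and both moved. The 12-nucleotide one was at 54.0% (50.5 to 57.4) after Ptbp1 knockdown, 19.1% (15.7 to 22.9) after Ptbp2 knockdown, 63.4% (58.9 to 67.6) after double knockdown and 19.1% (16.5 to 22) in control. The 15-nucleotide one was at 81.0%, 38.6%, 80.7% and 51% in the same libraries. The 12-nucleotide microexon of the latrophilin Adgrl2, an adhesion receptor, was at 44.9% (37.9 to 51.9), 12.4% (8.43 to 18), 66.9% (61.1 to 72.3) and 8.92% (5.78 to 13.5).

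Signalling genes formed the largest list. Of 25 microexons in 17 listed genes for kinases, GTPase regulators and scaffolds, 5 were higher after Ptbp1 knockdown (20%) and 4 after double knockdown (16%). Of all measured microexons 8.88% and 12.1% were higher. The 18-nucleotide microexon of Ptk2, the focal adhesion kinase, was at 79.5%, 27.9%, 80.2% and 34.6% in the Ptbp1, Ptbp2 and double knockdown and control. The 18-nucleotide microexon of the synaptic scaffold Cask was at 57.0%, 24.2%, 55.4% and 26.0%. Of 10 microexons in genes for transcription, chromatin and RNA, only that of the translation factor Eif4g1 (21 nucleotides) passed 20 points, with 46.7%, 24.0%, 57.0% and 21.5%. The share higher was thus 10% in the Ptbp1 and in the double knockdown, near that of all measured microexons. Both measured microexons of the calcium channel genes stayed put, at 3.96% or less for Cacna1b and at 100% for Cacna1c.

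All lists together held 85 microexons of 61 genes, with 20 higher after Ptbp1 knockdown and 25 higher after double knockdown. Outside the lists, 30 of 478 were higher after Ptbp1 knockdown and 43 after double knockdown. The lists were drawn up from genes known for microexons and with earlier results of these data known, so the difference between 29.4% and 9.0% higher after double knockdown is a description.

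**Figure D4:**
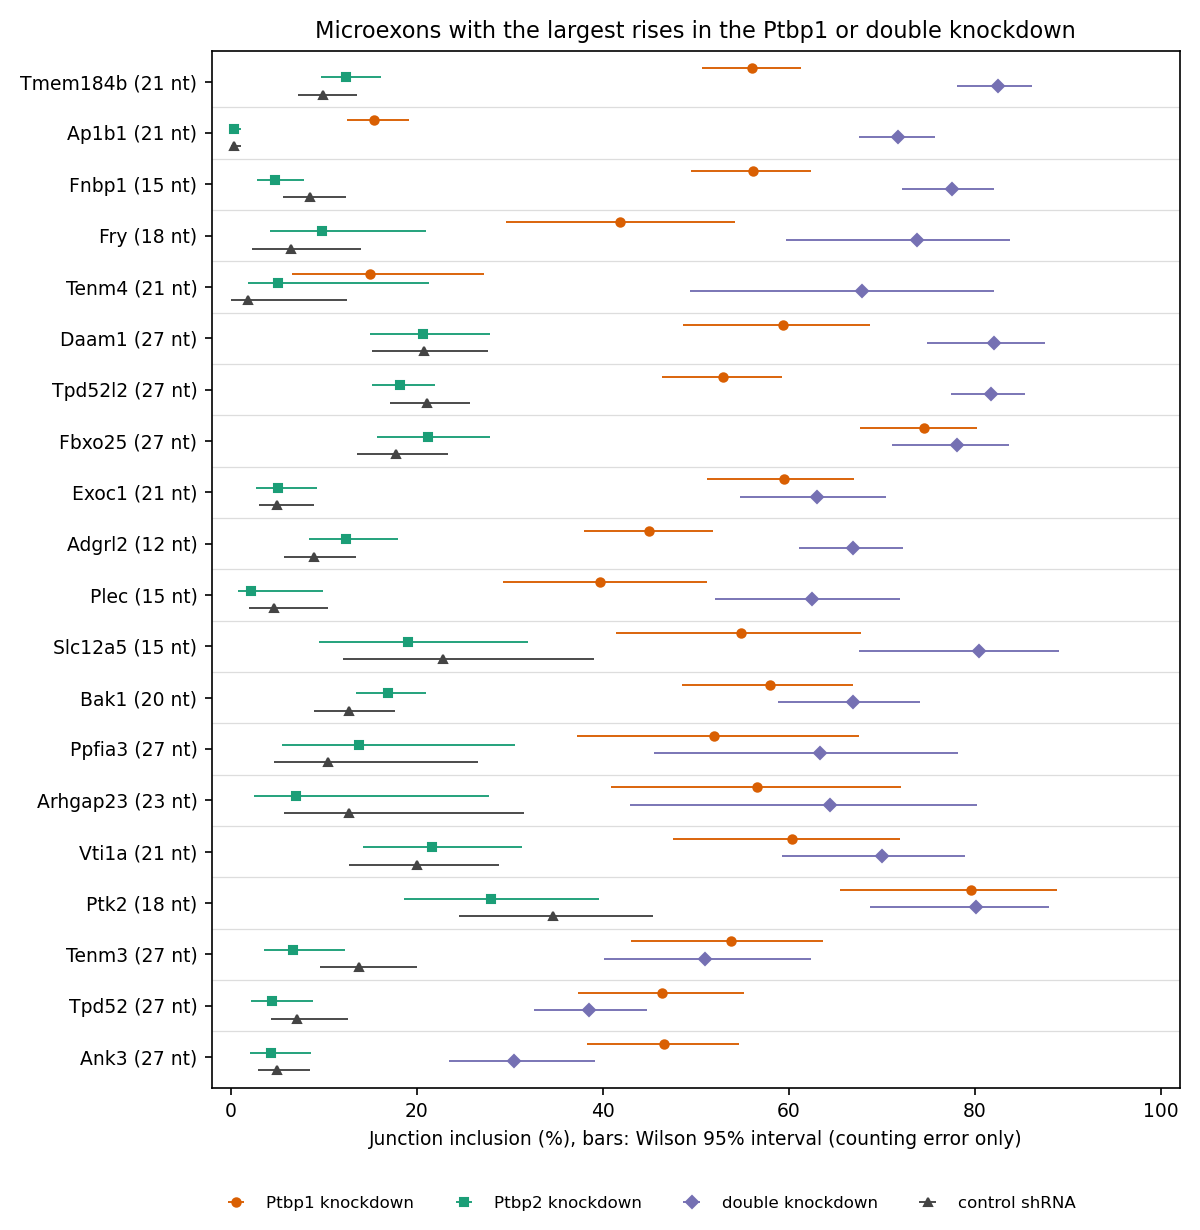
Inclusion (horizontal axis, percent) of the 20 microexons with the largest rises in the Ptbp1 or double knockdown, ordered by the rise after double knockdown; symbols mark the 4 libraries and bars the Wilson 95% interval, which covers counting error only. In every row the Ptbp2 knockdown (squares) overlaps control (triangles), while the double knockdown (diamonds) lies right of the Ptbp1 knockdown (circles) by 20 points or more for Tmem184b, Ap1b1, Fnbp1, Fry, Tenm4, Daam1, Tpd52l2, Adgrl2, Plec and Slc12a5.

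Where both genes were depleted, 17 microexons stood 20 points or more above the Ptbp1 knockdown. The widest gaps were those of Ap1b1 and of the 21-nucleotide microexon of Tenm4, a teneurin that links neurons across synapses. Tenm4 stood at 67.9% (49.3 to 82.1) after double knockdown and 14.9% (6.56 to 27.3) after Ptbp1 knockdown, with 5.08% (1.85 to 21.3) after Ptbp2 knockdown and 1.82% (0 to 12.5) in control. Its values rest on 27.5 to 43.5 reads a library, and the intervals of the double and Ptbp1 knockdown still did not meet. The 18-nucleotide microexon of Fry, a scaffold of NDR kinases, was at 73.7% (59.7 to 83.8) after double knockdown and 41.9% (29.6 to 54.2) after Ptbp1 knockdown, with 9.80% after Ptbp2 knockdown and 6.47% in control. Mapkbp1, a binding partner of JNK-type kinases, had an 18-nucleotide microexon at 53.6% (36.7 to 68.5) after double knockdown and 4.35% (1.58 to 18.6) after Ptbp1 knockdown, with 2.0% after Ptbp2 knockdown and 0% (up to 10.2) of 34 reads in control. Mapkbp1 was named after its values were seen.

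For other members of this set the Ptbp1 knockdown had already moved. The 21-nucleotide microexon of Tmem184b was at 82.4% (78.1 to 86.1) after double knockdown and 56.1% (50.6 to 61.3) after Ptbp1 knockdown, with 12.5% after Ptbp2 knockdown and 9.94% in control. The 27-nucleotide microexon of Daam1, a formin that builds actin filaments, was at 82.0% (74.8 to 87.5) and 59.3% (48.6 to 68.8), with 20.7% and 20.8%. That of Slc12a5, the neuronal potassium-chloride cotransporter (15 nucleotides), was at 80.4% and 54.9%, with 19.1% and 22.9%. The 15-nucleotide microexon of Plec, which ties cytoskeletal filaments together, was at 62.5% and 39.7%, with 2.19% and 4.67%. Measured at the 1-2 junction, the gaps between the double and the Ptbp1 knockdown were 15.9 points for Fnbp1, 16.3 for Daam1 and 18.7 for Adgrl2, below 20.

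Most microexons past 20 points after Ptbp2 knockdown were lower than in control. The 18-nucleotide microexon of Dst, a spectraplakin that links cytoskeletal filaments, was at 34.9% (30.9 to 39.2) after Ptbp2 knockdown, 94.3% (91.1 to 96.3) after Ptbp1 knockdown, 67.5% (63.1 to 71.7) after double knockdown and 93.7% (90.3 to 95.9) in control. It was thus low with Ptbp2 alone depleted and between the extremes with both depleted. Inpp4a encodes a phosphatase of membrane phosphoinositides. Its 18-nucleotide microexon was at 4.35% (1.94 to 12) after Ptbp2 knockdown, 64.6% (52.5 to 75.1) after Ptbp1 knockdown, 39.7% (29.6 to 50.8) after double knockdown and 37.5% (26.7 to 49.7) in control. It was highest after Ptbp1 knockdown and nearly absent after Ptbp2 knockdown, and the double knockdown was level with control. A form of the same exon that starts 3 bases later and shares its other junction was at 28.4%, 1.28%, 11.3% and 10.1% in the Ptbp1, Ptbp2 and double knockdown and control.

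Incenp, a scaffold of the Aurora B kinase complex in mitosis, had a 12-nucleotide microexon that was also highest after Ptbp1 knockdown and lowest after Ptbp2 knockdown. It stood at 9.17% (7.16 to 11.9) after Ptbp2 knockdown, 50.4% (45.9 to 54.9) after Ptbp1 knockdown, 18.6% (15.9 to 21.7) after double knockdown and 30.8% (27.2 to 34.7) in control. The double knockdown lay below control, with intervals that did not meet, and the difference of the Ptbp1 knockdown from control stayed just under 20 points. For Kifc3, a minus-end kinesin, the 27-nucleotide microexon was at 59.8% after Ptbp2 knockdown, 93.0% after Ptbp1 knockdown, 67.0% after double knockdown and 94.1% in control. Pcnt, a scaffold of the centrosome, was at 62.3%, 90.6%, 66.2% and 92.4% in those libraries, on 32 to 61 reads. Dst, Kifc3 and Pcnt share that order: the Ptbp1 knockdown was level with control and both libraries with reduced Ptbp2 RNA were lower. Measured at the 1-2 junction, the falls after double knockdown were 17.0 points for Dst, 18.9 for Kifc3 and 17.6 for Pcnt, below 20.

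The 24-nucleotide microexon of Picalm, a clathrin assembly protein, was at 10.6% (8.13 to 13.7) after Ptbp2 knockdown, 32.0% (27.8 to 36.3) after Ptbp1 knockdown, 7.20% (5.31 to 9.48) after double knockdown and 31.2% (27.7 to 35) in control. It was low in both libraries with reduced Ptbp2 RNA and level with control after Ptbp1 knockdown. For Flna (24 nucleotides), which crosslinks actin filaments, inclusion was 59.3% after Ptbp2 knockdown, 83.9% after Ptbp1 knockdown, 79.3% after double knockdown and 80.1% in control. The 9-nucleotide microexon of the kinase Map4k4 was at 67.3%, 95.3%, 95.9% and 90.6% in those libraries. That of Tbc1d24, a regulator of synaptic vesicle traffic (18 nucleotides), was at 31.2% (18 to 48.6), 88.9%, 97.8% and 74.1% (55.3 to 86.8), on 27 to 45.5 reads. In Flna, Map4k4 and Tbc1d24 the fall after Ptbp2 knockdown was not seen after double knockdown. At the 1-2 junction Flna fell by 16.9 points and Map4k4 by 15.1, below 20. Csnk1g3, a casein kinase, completed the 10, with 54.6% after Ptbp2 knockdown and 80.1% in control.

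The 2 microexons that were higher after Ptbp2 knockdown were those of Dctn4, a dynactin subunit, and Chpt1, a choline phosphotransferase of phospholipid synthesis. Dctn4 (21 nucleotides) was at 60.7% (54.2 to 66.7) after Ptbp2 knockdown, 60.3% after Ptbp1 knockdown, 69.1% after double knockdown and 30.6% (26.2 to 35.3) in control. Chpt1 (27 nucleotides) was at 36.8% (25.5 to 49.8), 37.4%, 52.6% and 14.5% (9.49 to 21.5) in those libraries. Both stood 20 points or more above control in the other 2 knockdowns as well.

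Falls after Ptbp1 knockdown were limited to Mroh1 and Iffo1. The 27-nucleotide microexon of Mroh1 was at 57.5% (47.8 to 67.1) after Ptbp1 knockdown, 93.9% (86.4 to 97.3) after Ptbp2 knockdown, 51.6% (39.6 to 63.4) after double knockdown and 94.5% (88.5 to 97.5) in control. That of Iffo1, an intermediate filament family member (9 nucleotides), was at 12.9% (8.2 to 19.7), 31%, 8.25% and 36% (24.1 to 49.9) in those libraries. Both were low in the libraries with little Ptbp1 RNA. The 18-nucleotide microexon of Nckap1, a subunit of the WAVE actin regulator, fell with both genes depleted: it was at 27.6% (24.1 to 31.4) after double knockdown, 64.9% (60.0 to 69.4) after Ptbp1 knockdown, 62.5% (57.5 to 67.1) after Ptbp2 knockdown and 65.5% (61.1 to 69.7) in control. Nckap1 was level in the other 3 libraries. Gatad2a, a subunit of a chromatin remodeller (16 nucleotides), was lower after double knockdown only by the mean of the junctions, with 11.8% against 43.2% in control; by the 1-2 junction it was at 2.90% and 14.3%.

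**Figure D5:**
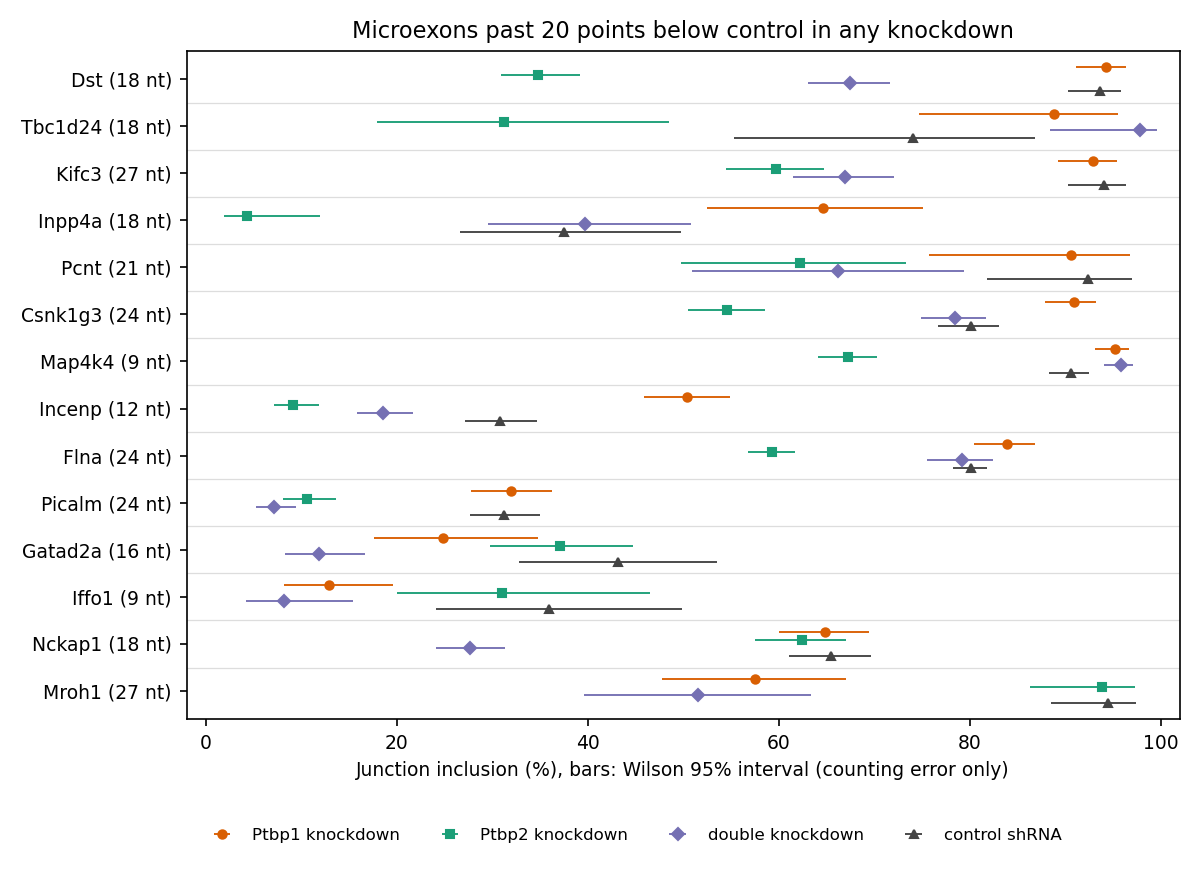
Inclusion (horizontal axis, percent) of the 14 microexons that were 20 points or more below control in any knockdown, ordered by the difference after Ptbp2 knockdown; symbols mark the 4 libraries and bars the Wilson 95% interval, which covers counting error only. Squares (Ptbp2 knockdown) lie left of triangles (control) in the upper rows, diamonds (double knockdown) lie beside squares for Picalm and beside triangles for Flna and Inpp4a, and diamonds and circles (Ptbp1 knockdown) lie left of triangles for Mroh1 and Iffo1.

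Related genes can carry similar microexons, as the second set of sequences shows. Among measured microexons of at least 9 nucleotides, 25 pairs from different genes were of the same size and at least 75% identical, nearly all from genes of 1 family. Both members passed 20 points in some comparison with control for 2 pairs, 1 member did for 4 pairs and neither did for 19. Many of the 19 had little room to rise, such as Pcbp2 and Pcbp3, both at 99.9% or more in every library. The Tenm3 and Tenm4 exons of 21 nucleotides differ by T13C, counted from the first base of the exon with the Tenm3 base first. Tenm3 was at 38.9%, 16.5%, 53.8% and 13.7% in the Ptbp1, Ptbp2 and double knockdown and control, and Tenm4 at 14.9%, 5.08%, 67.9% and 1.82%. Both were highest after double knockdown, and the interval of Tenm3 after Ptbp1 knockdown (31.9 to 46.2) lay above that of Tenm4 (6.56 to 27.3).

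The kinases Mink1 and Tnik, chosen for this pair after their values were seen, have microexons of 24 nucleotides with 75% identity. Mink1 was at 85.7%, 66.4%, 91.5% and 63.8% and Tnik at 70.7%, 32.1%, 83.7% and 37.1%, so both rose in the Ptbp1 and double knockdown by the mean of the junctions; by the 1-2 junction the rise of Mink1 after Ptbp1 knockdown was 17.1 points. Dst and its relative Macf1 have microexons of 18 nucleotides that differ by G9C and A12C. Dst was at 34.9% after Ptbp2 knockdown and 93.7% in control, and Macf1 at 78.4% (68.7 to 86.0) and 87.9% (79.6 to 93.1), with overlapping intervals. Eif4g1 and Eif4g3 (21 nucleotides, 76.2% identity) were at 57.0% and 10.0% after double knockdown, and at 21.5% and 0.645% in control. Among the pairs given here, identity of 75% or more thus went with like responses for some and unlike responses for others. Of the closer ones, Tenm3 and Tenm4 (95.2% identity) both rose after double knockdown. Dst and Macf1 (88.9% identity) were unlike after Ptbp2 knockdown.

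Of 50 genes with more than 1 measured microexon, all microexons passed 20 points in 2 genes, some did in 16 and none did in 32. The 2 genes were L1cam and Tenm3, whose 27-nucleotide microexon was at 53.8%, 6.72%, 51% and 13.8%. Of 7 overlapping pairs of microexons that share 1 splice site, that of Inpp4a is given above; such pairs share reads at 1 junction and are not independent.

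Pyrimidines made up 42.7% of the bases in microexons higher after double knockdown (64 with sequence) and 41.4% in unchanged microexons that are multiples of 3 (247 with sequence). For the 9 with sequence among those lower after Ptbp2 knockdown, pyrimidines made up 48.5%, with 28.1% T and 22.2% A, against 21.1% T and 31.7% A in the unchanged multiples of 3. The intron upstream had a median length of 1190 bases for those higher after double knockdown, 767.5 bases for the 10 lower after Ptbp2 knockdown, 1355 bases for the unchanged multiples of 3 and 1293 bases for cassette exons over 27 nucleotides. Within 5 to 95% in control, that median was 1563 bases for the unchanged multiples of 3 and 1780 bases for the longer exons. The intron sequence next to the microexons, where PTB proteins are known to bind, was not analysed here.

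Levels of most host genes stayed near those in control. Of 499 hosts, 492, 489 and 488 were within 2-fold of control after Ptbp1, Ptbp2 and double knockdown. The lowest against control was Flna, with log2 differences of -1.69 after Ptbp1 knockdown and -1.98 after double knockdown. Genes whose microexons were higher after Ptbp1 knockdown had a median log2 difference from control of -0.00 over 47 genes, and those higher after double knockdown -0.05 over 64 genes, all within 2-fold of control. Over all 10271 genes with enough reads the median was 0.00 in both comparisons. A second readout was the FPKM share of assembled transcripts that hold the microexon, which draws on the same reads. Among microexons higher after double knockdown this share was above control for 49 of 66, below it for 6 and equal for 11, with a median difference of 20.9 points. Over all measured microexons it was above control for 120 of 525 and below for 51 after double knockdown, and above for 113 of 528 and below for 58 after Ptbp1 knockdown. Among those higher after Ptbp1 knockdown it was above control for 39 of 49 and below for 3. Of the 10 lower after Ptbp2 knockdown it was below control for 5 and above for 2. Levels of the 2 readouts can be far apart: for Exoc1 the share was 100% after Ptbp1 knockdown and 66.5% in control, beside 59.5% and 5.03% by junction reads.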

How the data were processed

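RNA of 4 N2A libraries was analysed, 1 per group. CASAVA, TopHat and Cufflinks with mm9 are named, per the submitters' processing notes, and their versions are not given in the sources used here. Tables from SpliceTrap, as deposited, give, per the file headers, counts of reads at the 3 junctions of each exon trio, an inclusion ratio (a fraction) and exon coverage (a signal); the authors' Cufflinks files give FPKM and a score per assembled transcript, the score not being used. One trio per microexon was kept, that with most junction reads in control. Inclusion, the minimum of 20 reads and the 20-point limit are defined above; Wilson 95% intervals used reads rounded to whole numbers and cover counting error only, since PCR copies are not independent molecules. No test was run, because each group has 1 library.

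Genes were named by matching chromosome, strand, intron lengths and exon size to GENCODE M21: 95.0% of all cassette trios and 68.4% of microexon trios matched directly, and 98.0% and 75.7% after trios with shared exons were joined; 3 trios matched when looked up on another chromosome. Gene levels rest on reads of the middle exons named for a gene, worked out from the deposited exon coverage and exon size. They were scaled by median of ratios and divided by exon length, with 10 scaled reads added before log2. The named microexons were the 12 largest rises and falls past 20 points in each comparison with control, plus the measured microexons of fixed gene lists. Members and lists were chosen with earlier results of these data known, and any other microexon is marked as named after its values were seen, or belongs to a related pair. Sequence was planned for introns but only transcripts were at hand. Python 3.11 with numpy and pandas was used.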

Additional observations from a re-analysis of the deposited data

How the results depend on the processing

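Each group has 1 library, so no result has a replicate check and leaving out a replicate was not possible. No paired analysis was possible because each group holds 1 library. No count changed direction: in each setting run, more microexons were higher than lower in the Ptbp1 and double knockdown, and more were lower than higher after Ptbp2 knockdown. Counts below are higher and lower, and not every count is listed for each setting. Of the settings below, shares over all cassette exons were computed for the 1-2 junction only. The other counts describe only how the microexon counts depend on the setting. With a limit of 10 points they were 95 and 4 after Ptbp1 knockdown, 10 and 32 after Ptbp2 knockdown, 108 and 14 after double knockdown, 42 and 21 for the double against the Ptbp1 knockdown and 117 higher against the Ptbp2 knockdown. With 30 points they were 27 and 1, 1 and 5, 45 and 3, 7 and 2, and for the last comparison 2 lower. With a minimum of 50 reads 1 microexon was lower after Ptbp1 knockdown. The 2-3 junction alone, which lacks most reads of the shortest exons, gave 29 and 7 after Ptbp1 knockdown and 5 higher after Ptbp2 knockdown. The smaller of both junctions gave 29 and 6, and 5. The 1-2 junction gave 4 higher after Ptbp2 knockdown and 5 lower after double knockdown. Up to 15 nucleotides, with fewer microexons, the counts were 11 and 1, 0 and 2, 15 and 1, 4 and 1, and 19 and 1, and the median differences 1.40 points after Ptbp1 and 1.21 points after double knockdown. Both other choices of trio, the limit of 30 nucleotides, the minimum of 10 and the interval rule kept each count within 1.5 times. Of 99 differences past 20 points among the named microexons, 88 stayed past 20 by the 1-2 junction, 87 by the SpliceTrap ratio and 47 by the 2-3 junction. Calls lost by the 1-2 junction include Nav1 and Mink1 after Ptbp1 knockdown, and Dst, Kifc3, Pcnt, Kif1b and Sptan1 after double knockdown.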

Other observations

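The 76 microexons with 20 or more reads in some libraries only were compared where both libraries of a comparison reached that depth. None of 23 after Ptbp1 knockdown, 13 after Ptbp2 knockdown and 27 after double knockdown differed from control by 20 points. The following were named after their values were seen. A 21-nucleotide microexon of Dctn1 was at 100% on 61 reads after Ptbp1 knockdown and at 100% on 88 reads after double knockdown, while the Ptbp2 knockdown and control had 4 reads each. The 21-nucleotide microexon of Gabbr1, a GABA-B receptor subunit, had 112 reads after Ptbp1 knockdown, 12.5 after Ptbp2 knockdown, 81.5 after double knockdown and 26.5 in control. These junctions were deepest in both libraries with little Ptbp1 RNA.

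A few microexons passed 20 points outside the groups described above. The 21-nucleotide microexon of Cep290, a protein of the ciliary transition zone, was at 11.6% after Ptbp1 knockdown, 0% after Ptbp2 knockdown, 28.8% after double knockdown and 0% (up to 9.89) of 35 reads in control. The 18-nucleotide microexon of Nmt2, a protein N-myristoyltransferase, was at 10.7%, 27.9%, 48.3% and 14.6%, with the double knockdown above both other knockdowns. The 24-nucleotide microexon of Mars, a methionyl-tRNA synthetase, was at 19.4%, 4.62%, 40.4% and 7.02%. These were also named after their values were seen.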
